A study of Mus musculus with 4 samples.

Results

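Broad accessible regions of mouse microglia were described from ATAC-seq peak lists. Peaks on the autosomes whose highest pileup reached 0.25 units were joined wherever they shared at least 1 base, over all 4 libraries, and the members were chosen by the length of the joined region, 1500 bp or more. Of 93341 merged regions, 118 (0.126%) met this rule. They spanned 197467 bp, which was 0.619% of all merged bases. Pileup is the number of extended Tn5 cut sites that lie over a position, and it is given here in units of 1 cut site per 1000000 tags of the same library. ATAC-seq uses the Tn5 transposase, which cuts exposed DNA and leaves sequencing adapters in it, so that stretches with many cuts mark open chromatin.

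The libraries came from untreated C57BL/6 mice aged 3 months, 2 from WT brains and 2 from IRF8KO brains, with replicates numbered 1 and 2 in each genotype. IRF8, an interferon regulatory factor, binds DNA together with PU.1 in myeloid cells, and IRF8KO denotes its knockout. The labels give no allele and do not say whether the replicates came from separate mice, so the spread between them may be technical. Microglia, the resident macrophages of the brain, had been isolated without enzymes and sorted by flow cytometry, and their nuclei were tagmented and amplified with 12 PCR cycles. In such bulk samples, a region open in more cells and a region open to a greater degree in each cell cannot be told apart.

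Most accessible regions of a genome are short, about the stretch left free where 1 or a few nucleosomes have given way to transcription factors. Wider open stretches are known at promoters in CpG islands, which are GC-rich segments that keep their CpG dinucleotides because they stay unmethylated, and which hold the start sites of many widely expressed and developmental genes. Open chromatin has also been described along and beyond heavily transcribed genes, where elongating polymerase disturbs nucleosomes.

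The 200-bp windows below show both kinds of sequence found among the broad regions. Each lies at the highest summit of its region, except that of Wwtr1, which was taken beside the transcription start site (TSS) because the summit fell in an untranslated exon, and was read from the GRCm38 genome on the strand of the named gene. Capitals mark CpG dinucleotides. The first 3 windows lie at promoters of coding genes, and the last 2 past the 3′ ends of coding genes, of which that at Jun also spans the TSS of the non-coding gene Gm12703. Zbtb10 encodes a zinc finger transcription factor, and its window lies at positions -811 to -612 relative to the TSS, at chr3:9249791-9249990 on the plus strand, with 10 CpGs:
Zbtb10: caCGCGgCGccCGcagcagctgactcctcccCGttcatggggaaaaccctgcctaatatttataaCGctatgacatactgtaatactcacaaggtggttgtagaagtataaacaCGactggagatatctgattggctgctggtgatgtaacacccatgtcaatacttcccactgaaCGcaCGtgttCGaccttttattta
Kmt2c encodes a histone H3 lysine methyltransferase, and its window lies at positions -935 to -736 relative to the TSS, at chr5:25499481-25499680 on the minus strand, with 29 CpGs and matches to the GC box and the NRF1 core:
Kmt2c: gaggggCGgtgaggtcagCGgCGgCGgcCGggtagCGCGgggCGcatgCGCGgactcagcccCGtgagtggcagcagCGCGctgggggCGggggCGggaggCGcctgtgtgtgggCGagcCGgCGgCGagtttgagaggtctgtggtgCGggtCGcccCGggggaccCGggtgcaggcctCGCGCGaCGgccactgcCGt
Wwtr1 encodes TAZ, a coactivator of the Hippo pathway, and its window is the 200 bp just upstream of the TSS at chr3:57575911-57576110 on the minus strand, with 15 CpGs and a GC box:
Wwtr1: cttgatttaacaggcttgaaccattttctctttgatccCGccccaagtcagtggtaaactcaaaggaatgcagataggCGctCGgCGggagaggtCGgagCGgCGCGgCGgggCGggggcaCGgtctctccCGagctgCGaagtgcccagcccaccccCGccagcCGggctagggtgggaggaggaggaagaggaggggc
Hspa8 encodes the constitutive heat shock cognate chaperone, and its window lies 2519 to 2718 bp past the transcript end at chr9:40807719-40807918 on the plus strand, with 6 CpGs, a CEBP match and a CCAAT box:
Hspa8: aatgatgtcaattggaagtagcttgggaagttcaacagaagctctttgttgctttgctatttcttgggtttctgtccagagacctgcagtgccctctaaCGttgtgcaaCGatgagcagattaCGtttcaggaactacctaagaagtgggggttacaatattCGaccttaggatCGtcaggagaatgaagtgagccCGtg
Jun encodes an AP-1 subunit, and its window lies 598 to 797 bp past the transcript end at chr4:95048237-95048436 on the minus strand, with 3 CpGs and matches to PU.1 and CEBP, and 134 of its bases lie in exons of another transcript:
Jun: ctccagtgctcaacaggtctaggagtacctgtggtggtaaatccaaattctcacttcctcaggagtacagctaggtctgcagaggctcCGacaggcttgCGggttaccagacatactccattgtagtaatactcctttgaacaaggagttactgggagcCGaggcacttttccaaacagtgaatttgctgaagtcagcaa
The GC content of these windows was 78.5% at Kmt2c and 64.5% at Wwtr1. It was 47.0% at Zbtb10, whose highest summit lay outside the GC-rich core of its region, and 45.5% at Hspa8 and 48.5% at Jun.

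Depth differed with genotype. WT replicates had 46948938 and 48896408 tags, and 78793572 and 66224648 tags stood behind the IRF8KO replicates, so a pileup of 0.25 units stood for 11.7 to 19.7 overlapping cut sites. IRF8KO replicate 1 stood apart. It had 50837 passing autosomal peaks against 68931 to 79771 in the other libraries, and its median pileup over the 55137 merged regions with a summit in every library was 0.457 units against 0.654 to 0.809. The cell label was checked on promoters. TSSs of 24 to 26 of 28 microglia identity genes lay in a passing peak in each library. The same count was 1 or 2 of 8 for astrocyte markers, 0 to 3 for neuron markers, 1 or 2 for oligodendrocyte markers, 1 to 3 for endothelial markers, 0 or 1 for neutrophil and monocyte markers, 0 for B or T cell markers, and 2 to 4 for border macrophage markers. The Irf8 TSS lay in a region of 1028 bp, under the length limit, with 2.07 and 1.49 units in WT and 0.863 and 1.36 in IRF8KO.

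The lengths fell off steeply above the limit. The median was 1585 bp in the broad regions and 270 bp over all merged regions. Of the 118, 62 measured 1500 to under 1600 bp, 49 measured 1600 to under 2000 bp, and 7 reached 2000 bp. The limit cuts through a continuous distribution: 1720 further regions measured 1000 to under 1500 bp. Just inside it lay the promoters of Snx13, Tsc22d1 and Trim36, each 1500 bp, and just outside lay those of Atad2b (1499 bp), Scaf8 (1499 bp) and Hipk3 (1498 bp). The 3 inside had 1.22 to 3.91 units over the 4 libraries, and the 3 outside had 2.23 to 5.28. Chromosome X had 2103 merged regions, the longest 1454 bp, and chromosome Y had 32, the longest 877 bp, so neither would have added a member.

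**Figure D1:**
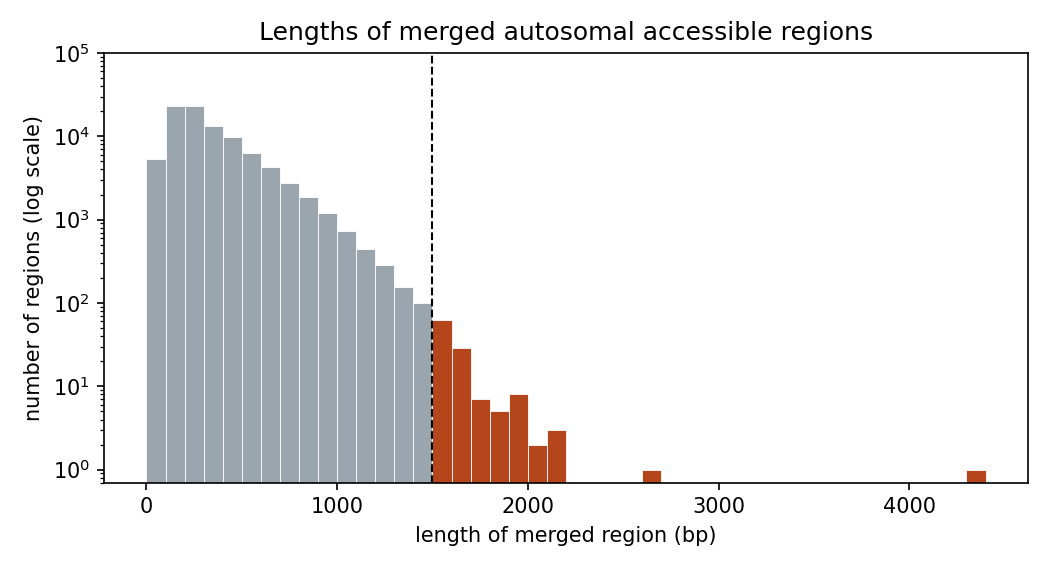
Number of merged autosomal regions (log axis) by length in bp, in bins of 100 bp, with the 1500 bp limit dashed and the 118 broad regions in red. The counts fall without a break across the limit, and 1 region stands alone at 4386 bp.

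Each broad region held a passing peak in all 4 libraries, against 40.5% of the other regions and 97.8% of those of 1000 to under 1500 bp. This is not independent of the rule, which pooled the libraries. Most regions were joined from several peaks: the median number per library was 2, the highest 6, and in 10 regions every library had exactly 1 peak. Summits within a region numbered 8 per library at the median, from 2 to 31. In 64 regions at least 1 library held a single deposited peak of 1500 bp or more, and in 8 all 4 libraries did. Those 8 included the nuclear copy of mitochondrial DNA on chromosome 1, the regions past Hspa1a and Hspa8, both regions at the chromosome 17 ribosomal locus, and the promoters of 1190002N15Rik and Slc39a10. Per library, peaks covered 1500 bp or more of 21 regions in all 4 libraries and of 40 regions in none, so the latter 40 were this wide only after the merge.

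Promoters made up most of the set. A TSS lay inside 105 regions (89.0%), and a TSS lay within 1 kb of the midpoint of 106 (89.8%, 95% Wilson interval 83.1% to 94.1%, counting error only). The same midpoint measure gave 23.6% of the 93223 other regions and 87.7% of the regions of 1000 to under 1500 bp, so the share in the latter was within the interval of the broad regions. The median distance from midpoint to TSS was 202.5 bp in the broad regions and 8802 bp in the others. Of the bases in broad regions, 33.8% lay in exons, 35.0% in introns and 31.2% outside genes, against 16.2%, 50.4% and 33.4% in the other regions. Untranslated exons took 19.2% of the bases.

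The TSSs inside the broad regions belonged to 134 genes, of which 111 were protein-coding and 23 were long non-coding RNA genes. In 27 regions TSSs of more than 1 gene were present, and in 24 they lay on both strands. Hnrnpa2b1 and Cbx3, which encode an RNA-binding protein of the hnRNP family and a heterochromatin protein, shared a region of 1984 bp at chr6:51469206-51471189. Hnrnpk shared 1769 bp with Rmi1, Zbtb1 shared 1614 bp with Zbtb25, Fubp1 shared 1589 bp with Dnajb4, and Dap3 shared 1536 bp with Ash1l. Setd5 shared 1551 bp with the non-coding Gt(ROSA)26Sor gene, the locus long used for transgenes because it is open in nearly all tissues.

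Around the 101 regions with a protein-coding TSS, cover was wider on the gene side. The median extent was 756 bp upstream and 888 bp downstream, and 63 of the 101 (62.4%) reached farther downstream than upstream. This asymmetry was shared with shorter promoter regions, at 64.6% of those of 1000 to under 1500 bp and 60.1% of those of 500 to under 1000 bp. At the TSS itself at least 96.0% of the 101 were covered by a peak in each library. At 250 bp downstream the share was 80.2% and 77.2% in WT and 87.1% and 83.2% in IRF8KO, and the genotypes did not overlap. Upstream the order changed with the distance. At 250 bp upstream it was 91.1% in both WT libraries and 93.1% in both IRF8KO libraries, and at 125 bp upstream it was 97.0% in both WT libraries and 94.1% and 93.1% in IRF8KO. Of the 40 positions read within 1000 bp upstream, both IRF8KO libraries lay above both WT libraries at 22, both WT above both IRF8KO at 6, and neither at 12. Of the 40 downstream these numbers were 26, 0 and 14. Cover was used in choosing the regions, so these shares are a description. The highest summit lay upstream of the TSS in 70 of the 105 regions with a TSS and within 250 bp of it in 59.

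**Figure D2:**
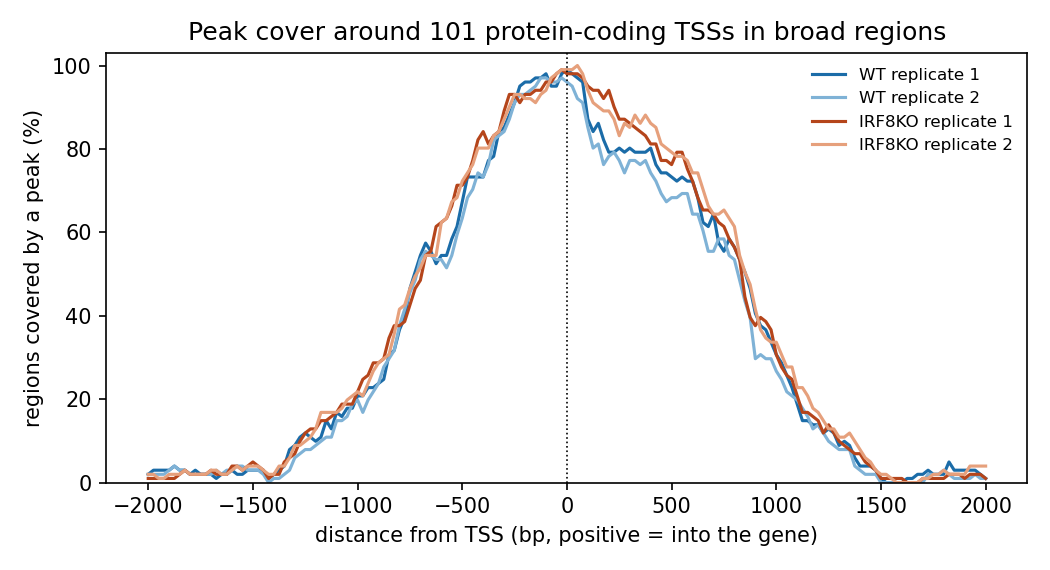
Percent of the 101 broad regions with a protein-coding TSS that were covered by a passing peak, against the distance from the TSS in bp (positive into the gene), 1 line per library. Cover falls on both sides of the TSS, and from 100 to 500 bp into the gene both WT lines run below both IRF8KO lines at every plotted position. From 175 to 100 bp upstream both WT lines run above, and beyond 800 bp into the gene the lines cross.

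The broad regions were rich in CpG, as were shorter regions with a TSS. In the 200-bp window at the highest summit the CpG observed over expected ratio, which compares the CpGs present with those the base composition would give, was 0.6 or more in 78.8% of the broad regions, 80.8% of regions of 1000 to under 1500 bp and 75.3% of other regions with a TSS inside. The medians were 0.898, 0.872 and 0.803. Over the whole broad region the median GC content was 68.5% and the median ratio 0.875. At a ratio of 0.6, 105 regions lay at or above and 13 below. The split followed the TSS: 102 of the 105 CpG-rich regions held one, and 10 of the 13 CpG-poor regions did not. The CpG-poor promoters were those of Mx2, an interferon-induced GTPase, of Duxf3, a copy of the Dux homeobox gene in a repeat array, and of Gm12703, a non-coding gene at the 3′ end of Jun. CpG-rich regions without a TSS included those beside Gm12974 and at the chromosome 17 ribosomal locus.

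Motif matches were counted in 200-bp windows at the highest summit, on both strands. A GC box (GGGCGG) was present in 67.8% of the broad regions, in 58.1% of 12283 other regions with a TSS inside and in 15.1% of all other regions. The ETS motif (CCGGAAG) was present in 5.93%, against 15.2% of the other TSS regions. Motifs of microglial enhancers had lower shares in the broad regions than in all other regions: PU.1 (GAGGAAGT) was in 4.24% against 9.83%, the ETS-IRF composite (GGAANNGAA) in 2.54% against 10.5%, and AP-1 (TGANTCA) in 1.69% against 8.57%. In the other TSS regions these shares were 3.67%, 5.28% and 3.57%, and in regions of 1000 to under 1500 bp 3.49%, 5.81% and 3.49%. The CEBP motif (TTGCNNAA) was in 12.7% of broad regions, 5.17% of other TSS regions and 10.1% of all others. A CCAAT box (CCAAT) was in 26.3%, against 31.1% of other TSS regions, the NRF1 core (GCGCATGC) in 2.54% against 4.06%, the E-box (CACGTGA) in 5.08% against 5.09%, and CRE (TGACGTCA) in 0 of 118 against 3.14%. The ETS, PU.1 and ETS-IRF letters share GGAA, so that 1 site can match several of them. These are matches of letters, described without a test.

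Regulators of chromatin, transcription and protein turnover were among the promoters, and are named here after their values were seen. Setd7, a lysine methyltransferase, had a region of 2023 bp at chr3:51559639-51561661, with 1.98 and 1.23 units in WT and 0.80 and 1.09 in IRF8KO. Kmt2c had 2009 bp at chr5:25498053-25500061, with 2.41 and 2.62 units in WT and 1.55 and 1.98 in IRF8KO. In both, every WT library lay above every IRF8KO library, as in 56 of the 118 (47.5%) and in 37.4% of all regions with a summit in every library. The ratio was 1.70 at Setd7 and 1.42 at Kmt2c, under the 1.5 asked of a call, and neither was called after pileup was divided by the median of shared regions. Other regions of this kind were those of the acetyltransferase gene Ep300 (1758 bp), the remodelling ATPase gene Smarca5 (1693 bp) and its partner Baz1a (1600 bp), the demethylase gene Kdm2a (1660 bp), the methyltransferase gene Nsd2 (1644 bp) and the Polycomb genes Rnf2 (1551 bp) and Rybp (1537 bp). Among transcription factors and their cofactors, the 118 held the promoters of Nfe2l2, the oxidative stress regulator NRF2 (1667 bp), Nr3c1, the glucocorticoid receptor (1560 bp), Nrip1, a nuclear receptor corepressor (1910 bp), Foxn2 (1945 bp), Elf2 (1912 bp), Sox4 (1779 bp) and Sp4 (1553 bp). The ubiquitin ligase scaffolds Cul1 (1504 bp) and Cul3 (1514 bp) and the conjugating enzymes Ube2d3 (1665 bp) and Ube2r2 (1535 bp) were also present.

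Pileup varied widely among promoters of similar length. Sp4 reached 10.1 and 8.55 units in WT and 9.70 and 12.1 in IRF8KO over 1553 bp. Slc39a10, a zinc transporter gene, reached 8.41, 6.85, 6.22 and 8.68 in the same order over 1622 bp. Rev3l, which encodes the catalytic subunit of DNA polymerase zeta, was longer, 2114 bp at chr10:39731125-39733238, but lower, with 2.34 and 1.94 in WT and 1.22 and 1.59 in IRF8KO. Kcmf1, a ubiquitin ligase gene, spanned 1900 bp with up to 1.31 units. Ppp2r3d, a phosphatase regulatory subunit gene, spanned 1974 bp at chr9:124422865-124424838 with 3.73 and 2.99 in WT and 3.05 and 4.09 in IRF8KO.

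Gene lists were read beside all autosomal protein-coding genes, of which 111 of 20862 (0.532%) had a TSS in a broad region, a share at which a short list would mostly hold none. None of the 27 autosomal microglia identity genes had its TSS in a broad region, although 25 had it in a merged region, of which the longest was that of Tgfbr1 at 904 bp. None of 18 disease-associated microglia genes had one either, the longest being Cd63 at 877 bp, nor did any of 20 ribosomal protein genes, the longest being Rpl7 at 1256 bp. Of 45 immediate-response genes, 44 had a TSS in a merged region and 0 in a broad one, the longest being Maff at 1345 bp. Among 43 myeloid transcription factors, 2 had a broad promoter, Bhlhe41 (1595 bp) and Smad7 (1516 bp), an inhibitor of TGF-beta signalling. Bhlhe41 had 2.62 and 2.21 units in WT and 1.55 and 2.16 in IRF8KO. Smad7 had 2.71 and 1.76 in WT and 1.42 and 2.22 in IRF8KO, and its groups overlapped. Among 22 histone and housekeeping genes, 3 had one, Hnrnpa2b1, Hnrnpk and Eef1a1, the last encoding a translation elongation factor (1521 bp). Eef1a1 had 3.96 and 3.68 units in WT and 3.50 and 4.74 in IRF8KO. No listed marker of astrocytes, neurons, oligodendrocytes, endothelium, neutrophils and monocytes, B or T cells or border macrophages, and none of 12 developmental homeobox genes, had a TSS in a broad region.

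Broad regions without a TSS lay mostly at the 3′ ends of genes, a grouping made after the values were seen. Of the 13, 8 (61.5%) had the annotated end of a protein-coding transcript within 2 kb of their midpoint, against 6033 of 80940 other regions without a TSS (7.45%) and 30 of 248 such regions of 1000 to under 1500 bp (12.1%). The genes included Hspa1a, Hspa1b, Hspa8, Egr1, Rgs1 and, between convergent ends, Hnrnpa2b1 and Nfe2l3. Hspa1a and Hspa1b encode inducible HSP70 and are near-identical copies, but 4.13% and 2.19% of the 50-mers in their regions recurred in the genome.

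At Hspa1a a region of 2108 bp (chr17:34967636-34969743) ran from -553 to 1554 bp relative to the transcript end, with 4.45 and 3.84 units in WT and 3.22 and 5.10 in IRF8KO. Past Hspa1b, 1552 bp were joined (chr17:34954771-34956322), from 114 to 1665 bp past the end, with 2.39 and 2.31 in WT and 1.61 and 2.93 in IRF8KO. Past Hspa8, 1895 bp were joined (chr9:40806207-40808101), from 1007 to 2901 bp past the end, with 2.07 and 1.70 in WT and 1.78 and 2.61 in IRF8KO. In all 3 heat shock regions the genotypes overlapped, and their TSS regions measured 397, 690 and 1212 bp. A region of 1565 bp at chr6:51458855-51460419 lay from 513 to 2077 bp past the end of Hnrnpa2b1 and from 87 to 1651 bp past that of Nfe2l3, with 0.79 and 0.80 in WT and 0.62 and 0.50 in IRF8KO.

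Pileup at the Egr1 end did not overlap between the genotypes. Egr1 encodes a zinc finger factor induced within minutes of many stimuli, and the region spanned 1550 bp (chr18:34864885-34866434), from -99 to 1450 bp relative to its end. Pileup was 4.98 and 3.93 units in WT and 1.84 and 1.68 in IRF8KO, 2.53 times as high in WT. Covered length was 1540 and 1502 bp in WT and 999 and 899 bp in IRF8KO. The WT peaks thus helped to bring this region past 1500 bp, so its pileup and covered length are a description. Its TSS lay in regions of 382 and 662 bp, which were 1.32 and 1.51 times as high in WT. Jun also had a region at its end, 1553 bp at chr4:95047947-95049499 from -465 to 1087 bp relative to it, which carries the TSS of Gm12703. It had 6.86 and 5.81 in WT and 4.63 and 5.30 in IRF8KO, and the WT values lay above both IRF8KO values.

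Regions past the end were then counted for every gene list and for all genes. Of 45 immediate-response genes, 26 (57.8%) had a region without a TSS within 1 kb past an annotated end, with a median length of 597.5 bp. Over all 20696 autosomal protein-coding genes 1920 (9.28%) did, with a median of 277 bp, and of the 11507 with a TSS in a merged region 1396 (12.1%) did. In the other lists it was 35.0% for 20 histone and housekeeping genes, 41.2% for 17 disease-associated microglia genes, 29.6% for 27 microglia identity genes, 23.3% for 43 myeloid transcription factors, 15.0% for 20 ribosomal protein genes, 2 of 8 neuron and 2 of 8 endothelial markers, 14.3% for 7 oligodendrocyte markers, 12.5% for 8 astrocyte, 8 B or T cell and 8 border macrophage markers, 8.33% for 12 homeobox genes and 0 for 8 neutrophil and monocyte markers. Such a region was 1500 bp or longer for 6 genes of all, of which 3 were immediate-response genes (Egr1, Hspa1a and Hspa1b), 2 were housekeeping genes (Hnrnpa2b1 among them), and Nfe2l3 shared its region with Hnrnpa2b1. Of all genes, 29 had such a region of 1000 bp or more. Among list genes under the length limit these were Nfkbiz (1245 bp), Btg2 (1237 bp) and Csf1r (1133 bp), which encodes the receptor microglia need to survive. These counts describe the lists, with no test.

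**Figure D3:**
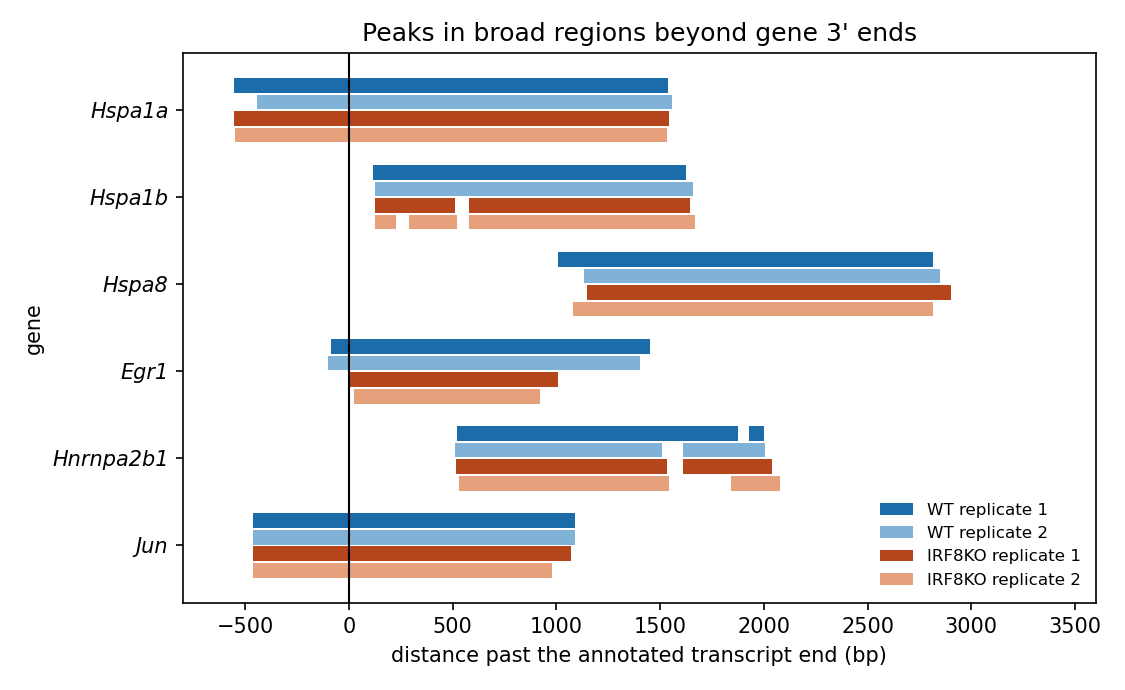
Extent of passing peaks in broad regions near 6 gene ends, in bp past the annotated transcript end (vertical line), 1 bar row per library. The bars past Hspa1a, Hspa1b, Hspa8, Hnrnpa2b1 and Jun reach similar distances in all libraries, while those of Egr1 stop at 1005 and 922 bp in IRF8KO and at 1450 and 1402 bp in WT. At Egr1 the WT peaks helped to bring the region past the length limit.

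The remaining regions without a TSS were of other kinds. The longest of all, 4386 bp at chr1:24611563-24615948, is a nuclear copy of mitochondrial DNA: 97.9% of its 50-mers also occur on the mitochondrial genome, so reads of either origin may have been placed there. Its pileup was 92.4 and 77.4 units in WT and 50.1 and 95.5 in IRF8KO, the highest of the 118. Next to it in height was a region of 1874 bp (chr17:39843117-39844990), together with an adjoining one of 1959 bp (chr17:39845042-39847000) that does hold TSSs. They overlap the non-coding genes Gm42418 and Gm26917, and the second also overlaps RefSeq's Rn18s-rs5, a sequence related to 18S ribosomal RNA, at chr17:39846354-39848202. Ribosomal DNA is present in many copies, most of which the assembly lacks, and their number was not measured here.

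Single regions far from any TSS were few. The first, 1831 bp at chr1:144242349-144244179 lay wholly inside the 3′ untranslated exon of Rgs1, a regulator of G-protein signalling, 5063 bp from its TSS. Another of 1806 bp (chr1:181256244-181258049) lay 30258 bp from the nearest TSS, with 1.26 and 0.78 units in WT and 0.72 and 1.21 in IRF8KO. One of 1529 bp (chr7:114291406-114292934) lay 15288 bp from the nearest TSS, that of the proteasome gene Psma1, with 1.94 and 1.27 in WT and 1.19 and 1.63 in IRF8KO. In both of the latter the genotypes overlapped.

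Covered length and pileup were compared between the genotypes. In WT replicates 1 and 2 peaks covered 169.8 and 163.8 kb of the broad regions (86.0% and 82.9%), and in IRF8KO replicates 1 and 2 they covered 179.3 and 179.2 kb (90.8% in both). The rule used peak lengths of these same libraries, so the wider libraries helped to choose the regions, and cover is described without a test. Cover averaged 166.8 ± 4.27 kb in the WT libraries and 179.2 ± 0.0226 kb in the IRF8KO libraries (SD, n = 2 each), and IRF8KO cover was 12.5 kb greater. Without IRF8KO replicate 1, in the 76 regions then merged, it was 115.7 and 112.1 kb in WT and 119.0 kb in IRF8KO replicate 2, a difference of 5.05 kb. There were 23 and 21 single peaks of 1500 bp or more in the WT libraries and 40 and 29 in the IRF8KO libraries, a count the rule also used. The IRF8KO libraries were deeper, and the part of depth in these widths was not tested.

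Median pileup over the 118 regions was 2.51 and 2.21 units in WT and 1.53 and 2.37 in IRF8KO. Averaged over libraries it was 2.361 ± 0.215 units for WT and 1.95 ± 0.595 units for IRF8KO (SD, n = 2 each). The difference, -0.411, was smaller than the spread in IRF8KO (exact permutation p 0.667). IRF8KO replicate 1 was the lowest library in 94 of the 118. Without it, and with regions merged from the other libraries, the difference was 0.105, and when each library was divided by its median over shared regions it was 0.0355.

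**Figure D4:**
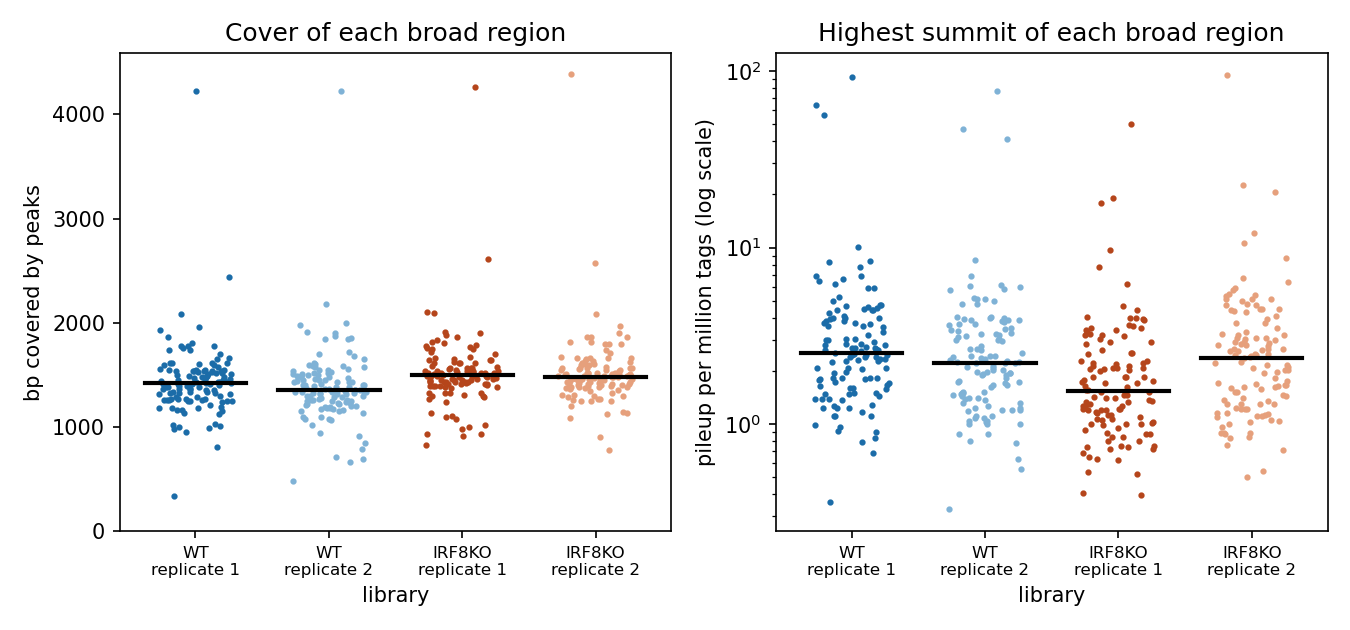
Each dot is 1 of the 118 broad regions in 1 library, as bp covered by passing peaks (left) and as highest pileup in units per 1000000 tags (right, log axis), with the median as a black line. Cover sits higher in both IRF8KO libraries, and the pileup median is lowest, at 1.53, in IRF8KO replicate 1.

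Single regions were called where both libraries of a genotype lay above both of the other and the means differed at least 1.5 times. By this rule 27 of the 118 (22.9%) were higher in WT, against 26.6% of the 55137 regions with a summit in every library and 13.9% of those of 1000 to under 1500 bp. In IRF8KO 6 (5.08%) were higher, against 9.53% and 3.56%. Without the minimum ratio 56 (47.5%) were above in WT, against 37.4% of all and 39.0% of those of 1000 to under 1500 bp, and 7 (5.93%) in IRF8KO, against 12.1% and 5.78%, while 55 overlapped. With the minimum ratio the members' shares lay between those of all regions and those of 1000 to under 1500 bp in both directions, and without it their share above in WT lay over both. By covered length with the same 1.5 ratio 1 region, at Egr1, was wider in WT (0.847%), against 10.4% of all and 1.11% of those of 1000 to under 1500 bp, and 4 (3.39%), at Fzd1, Nectin3, Rgs1 and Stk39, were wider in IRF8KO, against 9.43% and 4.5%. The rule chose regions by length, and no WT library covered more than 1126 bp at these 4, so that the IRF8KO peaks helped to bring them past 1500 bp. The counts by covered length are therefore a description, and nothing is read from them.

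The WT calls depended on the scaling. The median log2 difference of IRF8KO minus WT was -0.32 in the broad regions and -0.29 over all shared regions, and division by the shared median moved the latter by 0.3 on the log2 scale. After it 7 of the 27 WT calls remained, among them Wwtr1, both ribosomal regions, Egr1, Zswim5 and Snx13. These were 5.93% of the 118, against 15.7% of all shared regions. In IRF8KO 8 (6.78%) were then called, against 17.7%. At Wwtr1, Egr1 and Zswim5 only WT libraries covered 1500 bp or more, so the WT peaks helped to choose them and these calls are a description. The division raised IRF8KO relative to WT, so fewer calls in WT and more in IRF8KO follow from its construction. With peaks merged again without IRF8KO replicate 1, 76 regions remained, of which 7 (9.21%) were called higher in WT, against 22.1% of all, and 3 (3.95%) in IRF8KO, against 16.8%.

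Wwtr1 had the largest ratio. Its promoter region of 1621 bp at chr3:57574795-57576415 had 2.62 and 1.96 units in WT and 0.41 and 0.54 in IRF8KO, 4.83 times as high in WT and 3.84 times after the other scaling. Covered length was 1546 and 1096 bp in WT and 933 and 1122 bp in IRF8KO. WT replicate 1 thus helped to bring the region past 1500 bp, so the ratio is a description. Lats2, which encodes the kinase that inhibits TAZ, was called with a ratio of 1.53 and was not called after that scaling. The ribosomal regions had 64.2 and 47.1 in WT and 17.8 and 20.7 in IRF8KO at Gm42418, a ratio of 2.89, and 56.6 and 41.3 against 19.2 and 22.6 at Gm26917, a ratio of 2.34. With Egr1 these are among the 5 largest WT ratios. The highest pileups near TSSs of 8 oligodendrocyte markers summed to 3.51 and 3.42 units in WT and 1.51 and 2.37 in IRF8KO, and those of 8 B or T cell markers to 0.852 and 0.593 against 0.444 and 0.347, with none at Cd3d, Cd3e, Cd79a or Lck. The sums over 22 histone and housekeeping genes (78.9 and 70.4 against 49.8 and 66.6) and over 12 developmental homeobox genes (3.83 and 3.5 against 2.08 and 3.07) were higher in WT without overlap as well. Of the 14 lists, 9 overlapped, the astrocyte and endothelial lists among them, and 1, that of border macrophages, was higher in IRF8KO. Their part in the WT calls was not tested.

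Of the 6 regions higher in IRF8KO, that of Fzd1, a Wnt receptor gene, had the largest ratio. It spanned 1565 bp at chr5:4756890-4758454, with 0.36 and 0.33 units in WT and 0.84 and 1.12 in IRF8KO, 2.84 times as high. Its covered length was 340 and 480 bp in WT and 1565 and 775 bp in IRF8KO, so that 1 library, IRF8KO replicate 1, gave its full width. The Zbtb10 region, at 2179 bp the third longest (chr3:9249716-9251894), had 1.47 and 1.62 in WT and 2.91 and 5.0 in IRF8KO, a ratio of 2.56. Its covered length went the other way, with 1742 and 1870 bp in WT and 1696 and 1653 bp in IRF8KO, and 21.8% of its 50-mers recurred in the genome. Nectin3, which encodes a cell adhesion protein, had 0.68 and 0.55 in WT and 1.37 and 1.60 in IRF8KO over 1615 bp, a ratio of 2.41. The Rgs1 region described above had 1.38 and 1.10 in WT and 2.22 and 2.60 in IRF8KO, a ratio of 1.94, and was covered over 1022 and 714 bp in WT and 1831 and 1468 bp in IRF8KO. Its own promoter region, 512 bp long, had 3.69 and 2.80 in WT and 2.74 and 4.77 in IRF8KO, which overlapped. Stk39, a kinase gene of ion transport, had 0.83 and 0.63 in WT and 1.0 and 1.51 in IRF8KO over 1616 bp, a ratio of 1.72. Atrnl1, an attractin-like gene, had 1.58 and 1.51 in WT and 2.18 and 3.07 in IRF8KO over 1713 bp, a ratio of 1.70. Groups that do not overlap were part of the rule for these calls. At Fzd1, Nectin3, Rgs1, Stk39 and Atrnl1 the IRF8KO peaks also helped to bring the region past 1500 bp. At Atrnl1 peaks covered 1464 and 1216 bp in WT and 1609 and 1711 bp in IRF8KO. The pileup calls at these regions are therefore a description, as those by covered length are.

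The summed pileup near border macrophage markers was also higher in IRF8KO, but the number of these genes with a peak was not. The highest pileups near the TSSs of 8 such genes summed to 1.68 and 1.53 units in WT and 2.56 and 4.53 in IRF8KO, with peaks at 5 or 6 of the genes in WT and 4 or 6 in IRF8KO and none in any library at Cd163 or Cd209f. Their part in the 6 calls was not tested. The sums over 28 microglia identity genes were 87.5 and 64.6 in WT and 50.3 and 72.6 in IRF8KO, and overlapped.

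**Figure D5:**
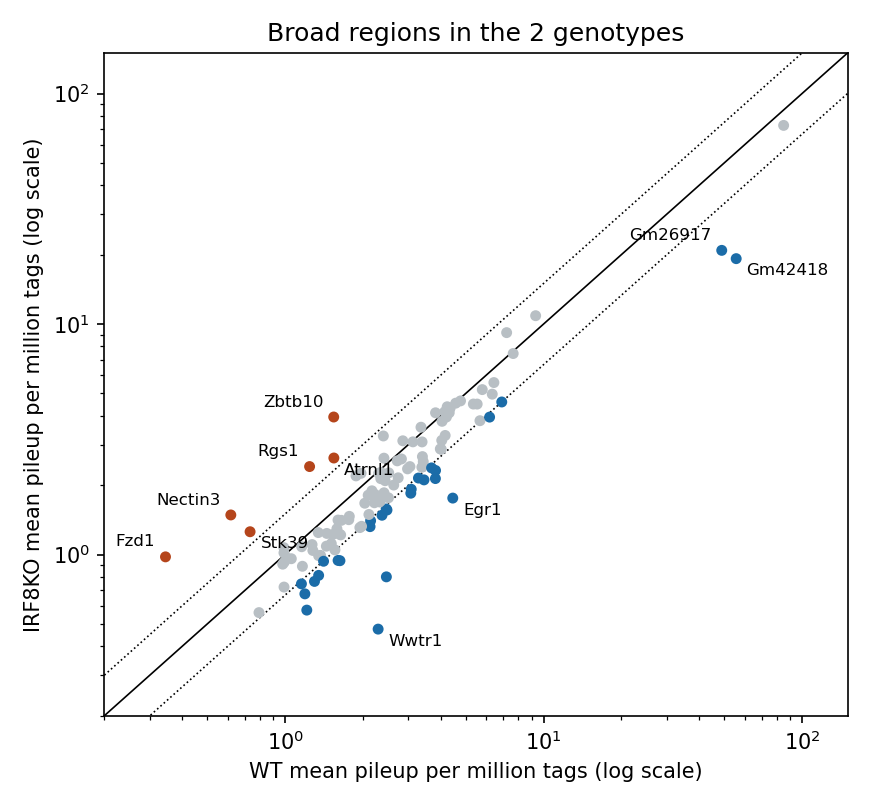
Mean highest pileup in units per 1000000 tags of the 118 broad regions in IRF8KO against WT (log axes, n = 2 each), with lines at equality and at 1.5 times. Of the dots, 99 lie below equality. The median log2 difference of IRF8KO minus WT was -0.32 in these regions and -0.29 over all shared regions. The 27 blue dots were called higher in WT and 6 red dots higher in IRF8KO, and Wwtr1 is the farthest below the line.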

How the data were processed

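ATAC-seq of 2 WT and 2 IRF8KO microglia libraries was read from 4 peak lists. The authors ran MACS 2.1.1.20160309 on each library alone with no control and a p limit of 0.01, per the file headers, on cut sites shifted by -37 bp and extended to 73 bp, with the same options in all lists. The submitters' processing notes name mm10, bcl2fastq, Bowtie2 and deepTools without their roles. Pileup as deposited is an unscaled signal, in whole numbers. The deposited fold enrichment is a ratio to local background and was not used. The deposited p and q are −log10 values, and q of 2 or more served as an alternative threshold.

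Intervals repeated per summit were reduced to distinct peaks; 742 of 881784 summits lay 1 bp outside their interval and were moved to its edge. Pileup was divided by the tags in each header and given per 1000000 tags. Peaks of 0.25 or more were merged, and covered bp and highest pileup were taken per library. TSSs and transcript ends came from GENCODE M21 and sequence from GRCm38. The search of the genome for 50-mers marked repeated sequence. The merge, cover and calls were tested on simulated peak lists. Named were the 10 longest regions, the 5 largest ratios in each direction, the 5 longest over 5 kb from a TSS, 3 on either side of the length limit, and list genes with a TSS in a region; some of these are not reported here, and other names were chosen after their values were seen. The members and the gene lists were chosen with earlier results of these data known. Python 3.11.15, pandas 2.3.3, numba 0.67.0, pysam 0.24.0 and samtools 1.23.1 were used.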

Additional observations from a re-analysis of the deposited data

How the results depend on the processing

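The number of broad regions was 1838 at a length limit of 1000 bp, 7 at 2000 bp and 64 where a single peak of 1500 bp was required. Regions higher in WT then numbered 265 (14.4%), 2 (28.6%) and 17 (26.6%), against 26.6% of all regions, those higher in IRF8KO 67 (3.65%), 1 (14.3%) and 3 (4.69%), against 9.53%, and 57.1% had a TSS within 1 kb of the midpoint at 2000 bp. Within 500 bp the share was 81.4%. Scaling by the median of shared regions gave 7 regions higher in WT (5.93%, against 15.7%) and a pileup difference of 0.0355, and no minimum ratio gave 56 (47.5%, against 37.4%). Leaving out 1 library in turn, in merge and comparison, gave 76 to 101 regions, 7 to 47 higher in WT, 3 to 6 higher in IRF8KO, a pileup difference of -0.823 to 0.105, a cover difference of 5.05 to 13.6 kb and a TSS share of 86.8% to 89.8%. Without IRF8KO replicate 1 the values were 76 regions, 7 higher in WT (9.21%, against 22.1%), 3 higher in IRF8KO (3.95%, against 16.8%), a cover difference of 5.05 kb and a pileup difference of 0.105. Without IRF8KO replicate 2, 47 (49.5%, against 53.5%) and 3 (3.16%, against 6.36%) were called, and without WT replicate 1, 13 (13.3%, against 22.4%) were higher in WT. The causes were not tested.

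Same-numbered libraries shared little pattern across regions: their deviations correlated at 0.0176 over 55137 regions. A shift common to all regions would not show in this correlation, so it does not settle whether the replicate numbers pair the libraries. With the replicate block the cover difference was 12.5 kb and the pileup difference -0.411 (exact sign-flip permutation p 1.0). The setting without IRF8KO replicate 1 on unchanged regions, and the counts past gene ends, were chosen after seeing the data. With 2 libraries a genotype the exact permutation test cannot go below 0.333.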
